A study of Homo sapiens with 12 samples.

Results

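Collagen chain genes, which encode the α chains of the collagen triple helix, were taken from the count table as every row whose symbol is COL, a type number, the letter A and a chain number. The rule found 44 of 57500 gene IDs. By class they were 11 fibrillar chains, 6 chains of the type IV collagen of basement membranes, and 27 others. The 12 libraries of total RNA, depleted of ribosomal RNA, form 4 groups with 3 biological replicates each, all of established human cancer lines. The control group was PEO4, an ovarian cancer line, in RPMI 1640 with serum and antibiotics, and the TGF-β group was the same line in that medium with recombinant human TGF-β at 10 ng/mL for 6 days. The other groups were untreated SW480, from a primary colorectal cancer, and untreated SW620, from a metastasis in the same patient, both in DMEM. Each origin is represented by 1 established line, so a difference between SW480 and SW620 compares those lines, and the labels do not say whether replicates came from separate thaws or days.

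Collagen chains wind in groups of 3 into a triple helix, in which glycine recurs at regular steps along each chain. Fibrillar collagens pack into the banded fibres of connective tissue, type IV chains form the network of basement membranes, and smaller families decorate fibrils (the FACIT collagens), anchor epithelia or span the cell membrane. Fibroblasts are the main makers of fibrillar collagen, epithelial and carcinoma cells are known for basement membrane and anchoring collagens, and TGF-β is a known inducer of matrix genes.

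Library totals lay between 14531420 and 22028956 counts, so a count of 0 allowed up to 3 counts, or 0.136 to 0.206 CPM (counts as a rate over the library's total). Collagen chains took 0.0355% to 0.0753% of a library's counts. The 6 colorectal markers summed to 37.7 to 66.9 CPM in SW480, 245 to 278 CPM in SW620 and at most 2.35 CPM in PEO4, and the 6 ovarian markers to 4950 to 8080 CPM in PEO4 control, 2530 to 4160 CPM with TGF-β and at most 189 CPM in the SW lines. Single markers were mixed: CDH17, GPA33, KRT20 and CDX1 averaged under 1 CPM in SW480, PAX8 averaged 48.8 and 52.9 CPM in SW480 and SW620 against 509 CPM in PEO4 control, and SOX17 was higher in both SW lines (2.78 and 3.41 CPM) than in PEO4 control (1.46 CPM). The 6 fibroblast and stromal markers (PDGFRA, PDGFRB, THY1, DCN, LUM and FAP) summed to 216 to 312 CPM in PEO4 control and 251 to 321 CPM with TGF-β, of which THY1 gave means of 258 and 289 CPM, while PDGFRA, DCN, LUM and FAP each averaged under 1 CPM there. SW620 replicate 3 held reads of PEO4-restricted genes at 1.01% of the PEO4 level (66 counts over 5 genes), against at most 0.283% in the other SW libraries, and values without that library are given below for COL4A1, COL4A5, COL5A1, COL13A1 and COL26A1.

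The coding sequences of the textbook classes differed in the length of the helix repeat, which describes the classes and does not test them. The longest unbroken run of triplets of codons that each begin with a glycine codon, the signature of the helix, was 337 to 343 triplets in 9 of the 11 fibrillar chains, 216 in COL24A1 and 217 in COL27A1. The type IV chains had runs of 38 to 66 triplets and the others of 23 to 113, so no chain outside the fibrillar class reached 300. Across the 44 genes the median GC content of the longest transcript was 55.3%, against 49% for protein-coding gene IDs. COL18A1 shared 1401 exon bases with SLC19A1 on the opposite strand. Whether counting used the strand is not given in the sources used here, so its level is uncertain by the reads that SLC19A1 may have given. COL9A3 shared 45 exon bases with TCFL5 on the opposite strand, and 12 members in all shared exon bases with another gene.

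The stretches upstream of 3 genes that passed the test after TGF-β are shown because the question in PEO4 is how these genes stand after a signal that acts through SMAD factors. The sequences are RefSeq windows (GRCh38.p14) before the annotated start, shown 5′ to 3′ on the strand of the gene and only outside annotated exons. Capitals mark CAGAC or its reverse complement GTCTG, the half-site named the SMAD box. They are COL7A1 at chr3:48595330-48595579 on the minus strand, COL5A1 at chr9:134641553-134641773 on the plus strand, and COL23A1 at chr5:178590556-178590643 on the minus strand.
COL7A1: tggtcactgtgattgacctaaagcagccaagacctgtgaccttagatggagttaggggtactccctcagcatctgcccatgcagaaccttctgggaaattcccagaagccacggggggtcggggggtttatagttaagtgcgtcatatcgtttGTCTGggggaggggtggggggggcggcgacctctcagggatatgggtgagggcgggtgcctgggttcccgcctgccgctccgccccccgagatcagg
COL5A1: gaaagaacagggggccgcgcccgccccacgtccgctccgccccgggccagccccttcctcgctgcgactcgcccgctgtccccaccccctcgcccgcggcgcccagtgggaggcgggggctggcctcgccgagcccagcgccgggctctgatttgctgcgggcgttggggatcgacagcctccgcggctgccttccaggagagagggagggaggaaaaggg
COL23A1: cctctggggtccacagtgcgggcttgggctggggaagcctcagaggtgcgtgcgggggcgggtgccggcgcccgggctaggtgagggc

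The COL7A1 window held 1 match, GTCTG, beginning 97 bases before the start, and the COL16A1 window (chr1:31704018-31704267, minus strand) held 1, CAGAC, beginning 179 bases before it. The COL5A1 and COL23A1 windows of 250 bases held none. COL3A1, also past the test, had no window in the RefSeq set used here, and the COL16A1 window is not shown because it lies in annotated exons. The half-site, on either strand, was present in 38% of 35116 RefSeq windows of that length and in 36.4% of 44 windows of 32 collagen chain genes, so members carried it about as often as other genes. The GC box (GGGCGG on either strand) was present in 42.6% of those 35116 windows and in 54.5% of the windows of collagen chain genes. These matches describe letters in a window and say nothing of binding.

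Per exon base, the collagen transcripts of every group were dominated by a few chains. COL18A1, the core protein of a basement membrane proteoglycan and the source of endostatin, had the highest level among collagen chains in PEO4, at 68.8 ± 3.7 TPM (transcript level per exon base, scaled to 1 sum in every library) in control and 70.8 ± 6.7 with TGF-β (SD, n = 3 here and below). It also led in SW620, at 48.4 ± 2.0 TPM. In SW480 it reached 74.9 TPM and came after COL9A3, a FACIT chain known from cartilage, at 126 ± 8.1 TPM. COL9A3 stood at 23.8 ± 3.2 TPM in SW620 and at 0.72 TPM in PEO4 control, so it was an abundant chain in the colorectal lines only. COL6A1, a chain of the beaded microfilaments around cells, was in the first 3 places everywhere, at 20.0 TPM in PEO4 control, 13.4 TPM with TGF-β, 40.6 TPM in SW480 and 29.2 TPM in SW620. The leading 3 chains made 71.7% (PEO4 control), 64.9% (TGF-β), 80.7% (SW480) and 71.9% (SW620) of the summed collagen chain TPM.

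**Figure D1:**
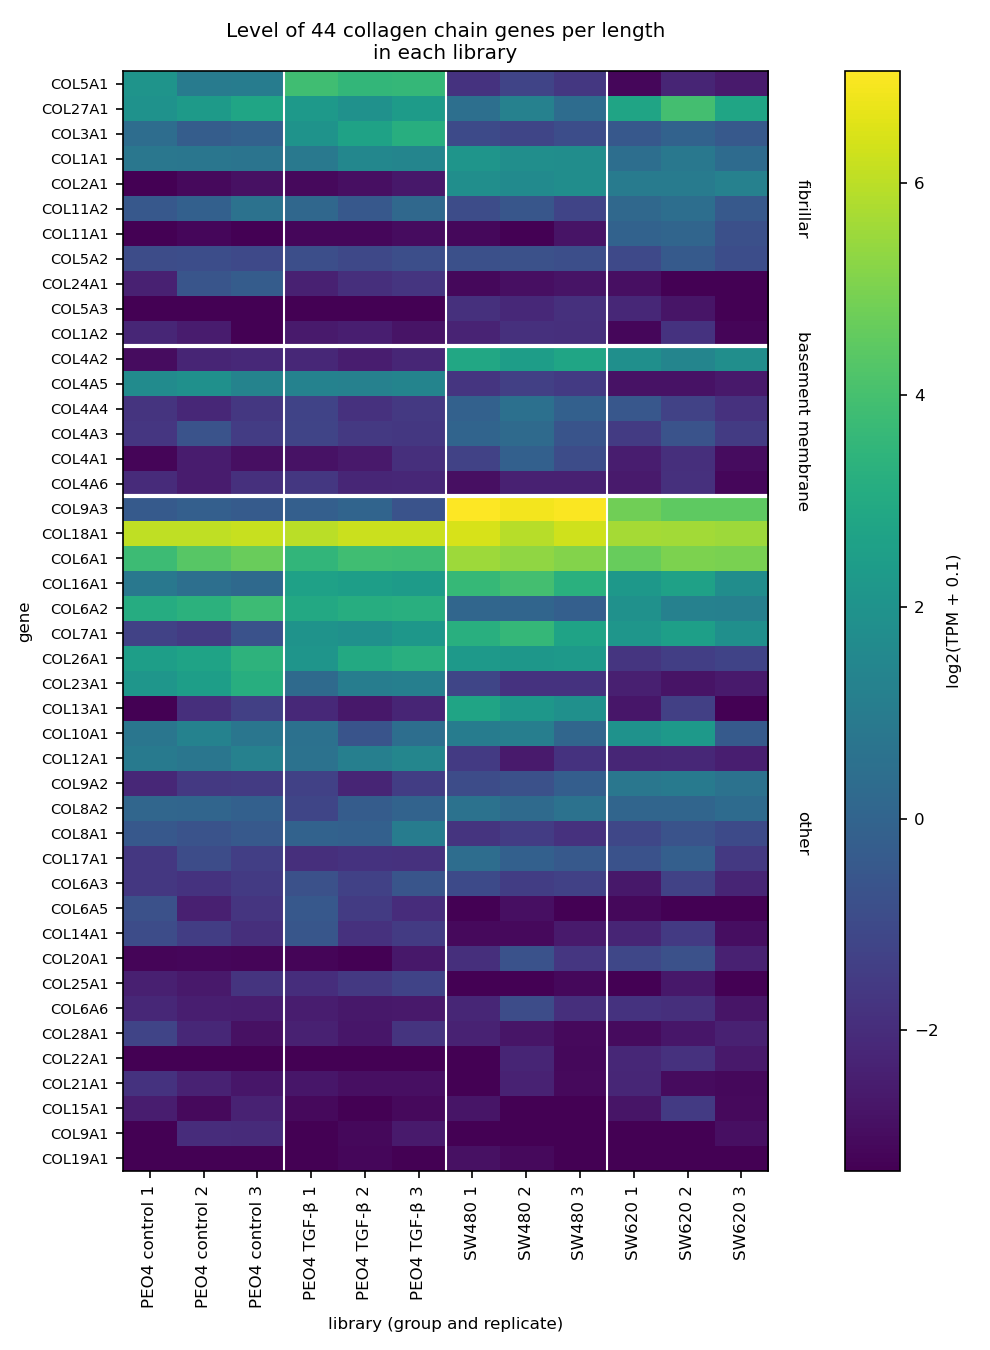
Level of each of the 44 collagen chain genes (rows, by class) in each of the 12 libraries (columns), as log2(TPM + 0.1). The brightest rows are COL18A1 in every library and COL9A3 in the SW480 libraries, where it averaged 126 TPM, and most rows of the lower block stay dark throughout.

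The fibrillar chains summed to 12.1 ± 1.3 TPM in PEO4 control and 27.4 ± 2.4 TPM with TGF-β, and to 10.4 ± 0.61 TPM in SW480 and 16.1 ± 6.0 TPM in SW620. The spread in SW620 came with replicate 2, at 23.0 TPM against 12.9 and 12.5. The type IV chains summed to 3.80 ± 0.64 TPM in PEO4 control and 3.21 ± 0.26 TPM with TGF-β, and to 9.21 ± 0.38 TPM in SW480 and 4.05 ± 0.39 TPM in SW620. In PEO4 their main chain was COL4A5 at 3.04 TPM in control, which pairs with COL4A3 and COL4A4 or with COL4A6 in specialised basement membranes. In the SW lines it was COL4A2, a chain of the network found in nearly all basement membranes, at 6.53 TPM in SW480. In a bulk library, fewer cells with a transcript and less of it per cell cannot be told apart.

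At the other end, COL19A1 did not exceed 3 counts in any library, so it was not detected above the limit that a count of 0 allows. The other 43 genes exceeded 3 counts in at least 1 library, and 13 averaged at least 10 CPM in some group. A filter on low counts kept 29 members for the test in PEO4 and 31 for that in the SW lines, with 23 in both and 7 in neither (COL5A3, COL9A1, COL15A1, COL19A1, COL21A1, COL22A1 and COL28A1). COL5A3 and COL22A1 had 0 counts in all 6 PEO4 libraries.

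In PEO4, TGF-β raised COL7A1, COL3A1, COL5A1 and COL16A1 and lowered COL23A1. Thus 5 of 29 tested members (17.2%) passed an adjusted p of 0.05 by edgeR's quasi-likelihood test (4 higher with TGF-β, 1 lower), against 2.26% of 19064 genes tested (1.27% higher and 0.991% lower). The median log2 fold change of the tested members was 0.05 and that of all genes tested -0.02, with values of single members from -1.83 to 3.46. For 10 of the 29 members the treated and control ranges were apart, against 21.5% of all genes tested. The 4 higher genes belong to 3 classes of matrix, fibrils, fibril-associated chains and anchoring fibrils.

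COL7A1, the only chain of the anchoring fibrils that fasten epithelial basement membranes to the tissue beneath, stood at 1.37, 1.08 and 2.07 CPM in the control libraries and at 17.3, 16.1 and 17 CPM with TGF-β. The highest control library thus lay far below the lowest treated one. The increase was 11-fold (log2 3.46 ± 0.21 SE, adjusted p 0.000485 by edgeR's quasi-likelihood test). Per length it moved from place 20 to place 9 among the collagen chains.

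Among the fibrillar chains, COL3A1, the chain of type III collagen in distensible tissues, stood at 3.26, 1.95 and 2.07 CPM in control and at 10.5, 17.1 and 21.3 CPM with TGF-β. COL5A1, the chain of type V collagen that starts and limits fibril growth, stood at 17.6, 8.36 and 7.80 CPM in control and at 63.4, 53.4 and 46.5 CPM with TGF-β. Neither gene overlapped between the groups, though control replicate 1 was highest in control for both. COL3A1 rose 6.71-fold (log2 2.75 ± 0.29, adjusted p 0.00293 by edgeR's quasi-likelihood test). COL5A1 rose 4.84-fold (log2 2.28 ± 0.28, adjusted p 0.00545 by the same edgeR test) and, per length, became the third in level among collagen chains at 12.7 ± 1.5 TPM. Its partner chain COL5A2 stood at 1.27, 1.30 and 1.03 CPM in control and 1.34, 1.15 and 1.21 CPM with TGF-β, values that overlapped. COL1A1, the main chain of type I collagen, stood at 6.21, 6.24 and 5.31 CPM in control and 6.70, 10.8 and 8.71 CPM with TGF-β, and its log2 fold change of 0.56 did not pass (adjusted p 0.192, edgeR). COL27A1, a fibrillar chain of cartilage, had 20.7 to 33.9 CPM in control and 21.1 to 26.5 CPM with TGF-β.

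COL16A1, a FACIT chain that lies along fibrils, stood at 6.11, 4.67 and 3.52 CPM in control and at 21.9, 21.0 and 16.6 CPM with TGF-β, again without overlap. It rose 4.17-fold (log2 2.06 ± 0.20, adjusted p 0.00233 by edgeR's quasi-likelihood test). COL23A1, a transmembrane collagen whose ectodomain is shed, moved the other way, from 6.26, 8.36 and 12.1 CPM in control to 1.64, 3.07 and 2.77 CPM with TGF-β. It fell to a level 3.57-fold lower (log2 -1.83 ± 0.30, adjusted p 0.0182 by edgeR's quasi-likelihood test). This call was less secure than the 4 increases: without control replicate 2 its adjusted p was 0.0897 by edgeR, and without TGF-β replicate 1, 2 or 3 it was 0.0656, 0.0604 or 0.0508. The 4 higher genes passed with any 1 library left out. Their highest adjusted p by edgeR was then 0.049 for COL5A1, 0.0343 for COL3A1, 0.0273 for COL16A1 and 0.00598 for COL7A1.

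**Figure D2:**
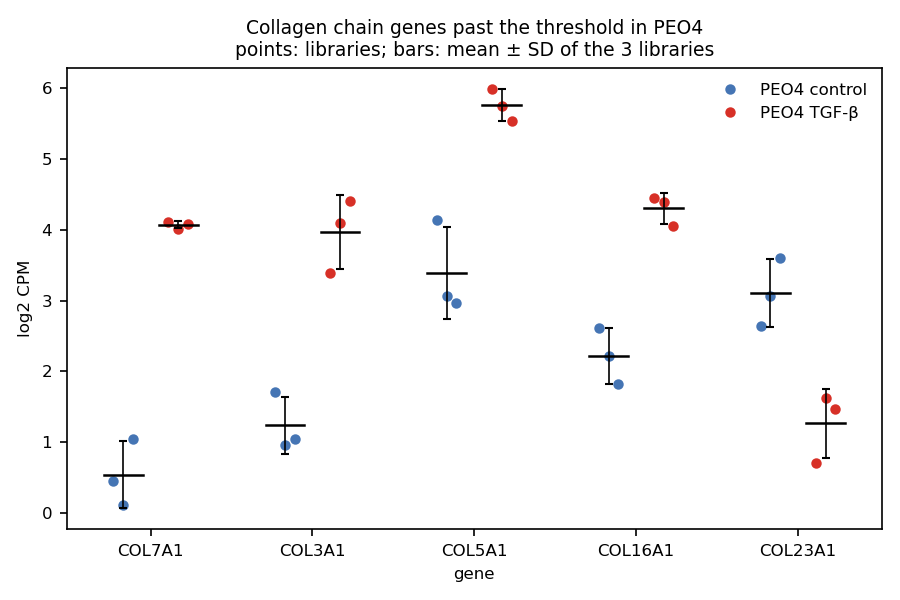
The 5 collagen chain genes past the threshold in PEO4, as log2 CPM (vertical axis) in each library, with bars for the mean ± SD of the 3 libraries of a group. For each gene all 3 treated libraries lie on the same side of all 3 control libraries, with COL23A1 the only gene lower with TGF-β.

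The ovarian markers were lower with TGF-β without overlap of their sums (4950 to 8080 CPM in control, 2530 to 4160 CPM with TGF-β), with MUC16 averaging 5190 and 2140 CPM and MSLN 597 and 345 CPM. The stromal marker THY1 averaged 258 CPM in control and 289 CPM with TGF-β, while the endothelial markers (2.71 to 3.37 and 1.62 to 1.95 CPM in sum) and leukocyte markers (2.49 to 3.34 and 2.59 to 3.12 CPM) stayed low. Their part in these changes was not tested.

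None of the 5 tested type IV chains passed by edgeR's quasi-likelihood test. Of all genes tested 2.26% did, so 0 of 5 lies near that share. Of the 5, 0 had an unadjusted p under 0.05 by edgeR, against 3175 of 19064 genes tested. limma-voom called 0 of the 5, beside 433 of 19064 genes tested. DESeq2 gave an adjusted p for COL4A3, COL4A4 and COL4A5 and called 0 of these, beside 923 of 17256 genes. COL4A5 stood at 14.6, 16.8 and 10.3 CPM in control and 11, 10.8 and 10.2 CPM with TGF-β, with a log2 fold change of -0.38 ± 0.18. The abundant chains of the remaining class also overlapped between the groups. COL18A1 had 221, 227 and 225 CPM in control and 212, 256 and 225 CPM with TGF-β, COL6A2 17.9 to 26.9 and 16.2 to 19.3, and COL26A1, a chain first described in gonads, 6.82 to 11.7 and 5.16 to 10.2. COL6A1 had 29.1, 43.1 and 49.96 CPM in control and 24.0, 31.9 and 26.5 CPM with TGF-β, a log2 fold change of -0.57 that did not pass (adjusted p 0.175, edgeR) but did without control replicate 1 (adjusted p 0.0161). COL6A3, the long chain of type VI collagen, had 1.73, 1.47 and 1.69 CPM in control and 3.82, 2.45 and 3.84 CPM with TGF-β, without overlap. It did not pass by edgeR (log2 1.05, adjusted p 0.0873), although DESeq2 called it. The tested members not named here for PEO4 had at most 11.6 CPM in any library.

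Between the colorectal lines, 4 type IV chains, COL1A1, COL7A1, COL9A3, COL13A1, COL16A1, COL18A1 and COL26A1 were lower in SW620, while COL11A1, COL27A1, COL6A2 and COL9A2 were higher. By edgeR's quasi-likelihood test 15 of 31 tested members (48.4%) passed, 4 of them higher in SW620 and 11 lower, against 30.5% of 20941 genes tested (13.5% higher and 17% lower). The median log2 fold change of the tested members was -0.85, and that of all genes tested was 0.03. For 22 of the 31 members the ranges of the lines were apart, against 44.2% of all genes tested. Without SW620 replicate 3, the library with the PEO4-restricted reads, 17 members passed, 5 higher and 12 lower, beside 7419 of 22609 genes tested. Without SW620 replicate 1 there were 10, with 7 of them lower, beside 4391 of 22566 genes tested. DESeq2 called 16 members and 6742 of 30131 genes tested.

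All 5 tested type IV chains were lower in SW620 without overlap, and 4 passed. COL4A2 stood at 48.0, 38.7 and 52.2 CPM in SW480 and 22.2, 17.1 and 26.6 CPM in SW620, a log2 fold change of -1.08 ± 0.20 (adjusted p 0.00363 by edgeR's quasi-likelihood test). Its network partner COL4A1 stood at 1.55, 4.37 and 2.49 CPM in SW480 and 0.380, 0.846 and 0.154 CPM in SW620, a log2 fold change of -2.61 ± 0.65 (adjusted p 0.0147, edgeR). The COL4A1 call was lost without SW620 replicate 1 (adjusted p 0.0734, edgeR), and its log2 fold change was -3.31 without SW620 replicate 2. Without SW620 replicate 3, where it had 3 counts, the log2 fold change was -2.20.

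COL4A3 and COL4A4, chains of the network of kidney glomeruli, were near each other in level in SW480, at 0.854 and 0.987 TPM. COL4A4 stood at 2.88, 4.95 and 3.17 CPM in SW480 and 2.01, 1.09 and 0.721 CPM in SW620 (log2 -1.52 ± 0.46, adjusted p 0.0340, edgeR), and COL4A3, at log2 -1.33 ± 0.45, missed the threshold (adjusted p 0.0518, edgeR) but passed without SW620 replicate 2 (0.0207) and by DESeq2. The COL4A4 call held without SW620 replicate 1 (adjusted p 0.0260, edgeR) and was lost without any other library: its adjusted p by edgeR was 0.0694, 0.0992 or 0.0659 without SW480 replicate 1, 2 or 3, and 0.0660 or 0.0555 without SW620 replicate 2 or 3. With library totals in place of TMM scaling it was 0.0611. COL4A5 stood at 0.831, 1.28 and 1.13 CPM in SW480 and 0.163, 0.181 and 0.309 CPM in SW620, where counts were 3 to 6 per library (log2 -2.26 ± 0.53, adjusted p 0.0111, edgeR). The PEO4-like reads in SW620 replicate 3 would amount to 51.4% of its 6 counts there, and its log2 fold change was -2.61 with that library left out. The COL4A5 call was lost without SW480 replicate 3 (adjusted p 0.0584, edgeR) and without SW620 replicate 1 (0.0717).

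The 6 type IV genes lie in pairs with their starts facing away from each other. Between their RefSeq starts lay 126 bases for COL4A1 and COL4A2 (chr13:110307158-110307283), 418 for COL4A4 and COL4A3 on chromosome 2, and 379 for COL4A6 and COL4A5 on chromosome X. The genes of a pair were not always at like levels. COL4A3 and COL4A4 stood close, at 0.854 and 0.987 TPM in SW480 and 0.344 and 0.361 TPM in SW620, but in SW480 COL4A2 reached 6.53 TPM and COL4A1 0.512 TPM, and in PEO4 control COL4A5 reached 3.04 TPM and COL4A6 0.127 TPM.

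Of 9 tested fibrillar chains, 2 were higher and 1 lower in SW620, a share of 33.3% near the 30.5% of all genes tested. COL11A1, a chain of the type XI collagen at the core of cartilage fibrils, was at 0 to 3 counts in the SW480 libraries but at 34 to 50 in those of SW620. The ratio of depth-scaled counts was 31.1, with a 95% counting interval of 11.9 to 116, and the adjusted p was 0.001 by edgeR's quasi-likelihood test. COL27A1 stood at 6.04, 11.9 and 6.56 CPM in SW480 and 30.8, 75.0 and 38.7 CPM in SW620, with replicate 2 highest in both lines. It was 5.92-fold higher (log2 2.57 ± 0.39, adjusted p 0.00109 by edgeR) and reached 9.60 TPM in SW620. COL1A1 went the other way, from 13.8, 12.4 and 12.7 CPM in SW480 to 4.07, 5.68 and 4.58 CPM in SW620 (log2 -1.44 ± 0.22, adjusted p 0.00122, edgeR).

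The remaining fibrillar chains did not pass. COL2A1, the main chain of cartilage fibrils, stood at 7.58, 7.45 and 8.71 CPM in SW480 and 4.18, 4.41 and 6.18 CPM in SW620 and missed the threshold (log2 -0.68, adjusted p 0.0731, edgeR), although it passed without SW620 replicate 3 (0.0267). COL5A1 was at or under 1.41 CPM in every SW library, with a log2 fold change of -1.96 and an adjusted p of 0.0556 by edgeR. It passed without SW620 replicate 2 (0.0423), without the filter (0.046), with all 12 libraries in 1 model (0.0206) and with the replicate number in the model (0.00711). By limma-voom COL5A1 also passed (0.049), but by DESeq2 (0.0651) or with a correction for GC content (0.0642) it did not. PEO4-like reads would amount to 41.5% of its 6 counts in SW620 replicate 3, and without that library its log2 fold change was -2.12 (adjusted p 0.0636, edgeR). COL3A1 had 0.899 to 1.19 CPM in SW480 and 1.41 to 2.06 CPM in SW620 (log2 0.79, adjusted p 0.171, edgeR).

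Among the FACIT chains, COL9A3 had the most counts of any collagen chain that differed by more than 5-fold. It stood at 218, 211 and 247 CPM in SW480 and 44.4, 37.0 and 43.5 CPM in SW620, 5.41-fold lower (log2 -2.44 ± 0.17, adjusted p 1.4e-05 by edgeR's quasi-likelihood test). COL9A2, its partner in type IX collagen, was higher instead, at 0.609, 0.771 and 1.24 CPM in SW480 and 2.28, 2.72 and 2.42 CPM in SW620 (log2 1.49 ± 0.42, adjusted p 0.0240, edgeR). The COL9A2 call was lost without SW480 replicate 1 (adjusted p 0.109, edgeR), SW480 replicate 2 (0.0672) or SW620 replicate 1 (0.0621). COL9A1, the remaining chain of type IX collagen, had at most 2 counts in any SW library. COL16A1 stood at 38.8, 53.7 and 34.6 CPM in SW480 and 13.8, 19.4 and 12.6 CPM in SW620 (log2 -1.48 ± 0.23, adjusted p 0.00143, edgeR).

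COL13A1 and COL26A1 had at most 10 counts in any SW620 library. COL13A1, a transmembrane collagen of cell adhesions, stood at 13.0, 9.70 and 8.25 CPM in SW480 and at 0.108, 0.605 and 0 CPM in SW620 (log2 -5.47 ± 0.73, adjusted p 0.000561, edgeR). Its fold depended on SW620 replicate 2, which held most of the SW620 counts. It was -7.38 on the log2 scale without that library and -4.88 without SW620 replicate 3. COL26A1 stood at 5.09, 5.14 and 5.99 CPM in SW480 and at 0.217, 0.302 and 0.412 CPM in SW620, 17-fold lower (log2 -4.09 ± 0.39, adjusted p 7.8e-05, edgeR). PEO4-like reads would make 24.8% of its 8 counts in SW620 replicate 3, and its log2 fold change was -4.36 with that library left out.

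COL7A1 stood at 34.7, 49.6 and 28.2 CPM in SW480 and 15.6, 22.2 and 15.6 CPM in SW620 (log2 -1.08 ± 0.25, adjusted p 0.00956, edgeR), a call lost without SW620 replicate 1 (0.0610). COL18A1 stood at 247, 194 and 263 CPM in SW480 and 143, 144 and 161 CPM in SW620 (log2 -0.65 ± 0.18, adjusted p 0.0223, edgeR). Its call was lost without SW480 replicate 1 (0.137), SW480 replicate 3 (0.137) or SW620 replicate 1 (0.138), and with a correction for GC content (log2 -0.45, adjusted p 0.152). Its longest transcript is among the richest in GC of the members, at 67.2%.

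Of the 4 type VI chains tested only COL6A2 passed, and it was higher in SW620. COL6A2 stood at 1.77, 1.86 and 1.64 CPM in SW480 and 6.62, 4.29 and 4.89 CPM in SW620 and was 2.99-fold higher (log2 1.58 ± 0.31, adjusted p 0.00464 by edgeR's quasi-likelihood test). COL6A1 stood at 82.9, 80.6 and 74.6 CPM in SW480 and 43.7, 59.2 and 68.4 CPM in SW620. Its values did not overlap, but its log2 fold change of -0.47 did not pass (adjusted p 0.0879, edgeR). COL6A1 passed by edgeR without SW620 replicate 3 (adjusted p 0.0247). It also passed with the replicate number in the model, without (0.00672) or with (0.0487) a correction for GC content. COL6A3 (log2 -1.04, adjusted p 0.218) and COL6A6 (log2 -0.91, adjusted p 0.358) did not pass by edgeR and overlapped between the lines.

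**Figure D3:**
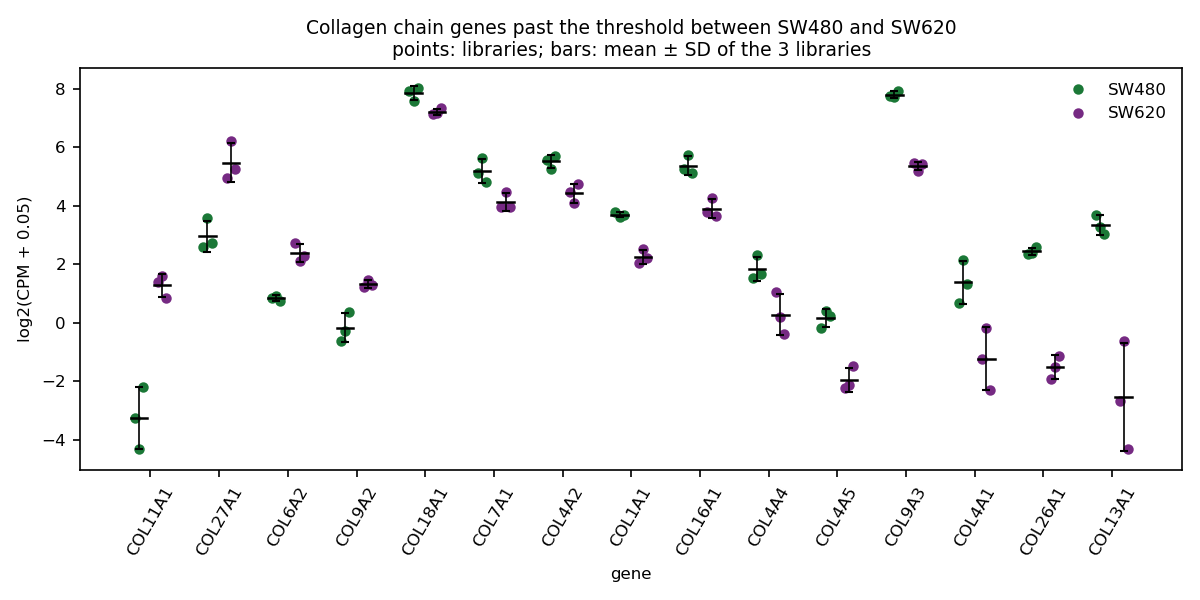
The 15 collagen chain genes past the threshold between SW480 and SW620, as log2(CPM + 0.05) (vertical axis) in each library, with bars for the mean ± SD of the 3 libraries of a line. The 4 genes at the left are higher in SW620 and the other 11 lower, with the widest separation for COL13A1, COL26A1 and COL11A1, whose low groups hold few counts.

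Stromal markers also differed between the lines. The 6 fibroblast and stromal markers summed to 2.56 to 3.26 CPM in SW480 and 9.96 to 17 CPM in SW620, where LUM alone averaged 7.76 CPM, with FAP at 0 in both lines and PDGFRA and DCN under 1 CPM. The 3 endothelial markers summed to 2.51 to 3.33 CPM in SW480 and 4.86 to 10.5 CPM in SW620. The 3 leukocyte markers summed to 0.157 to 1.35 CPM and 0.849 to 5.77 CPM, with PTPRC averaging 0.0407 and 2.86 CPM. Their part in the collagen differences was not tested.

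COL7A1 and COL16A1 were the 2 members past the threshold in both comparisons, and these 2 moved in opposite directions. They were higher with TGF-β in PEO4 (log2 3.46 and 2.06) and lower in SW620 than in SW480 (log2 -1.08 and -1.48). Another 13 members passed between the SW lines only and 3 (COL3A1, COL5A1 and COL23A1) in PEO4 only. Whether an effect differed between the comparisons was not tested, and they share no library.

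**Figure D4:**
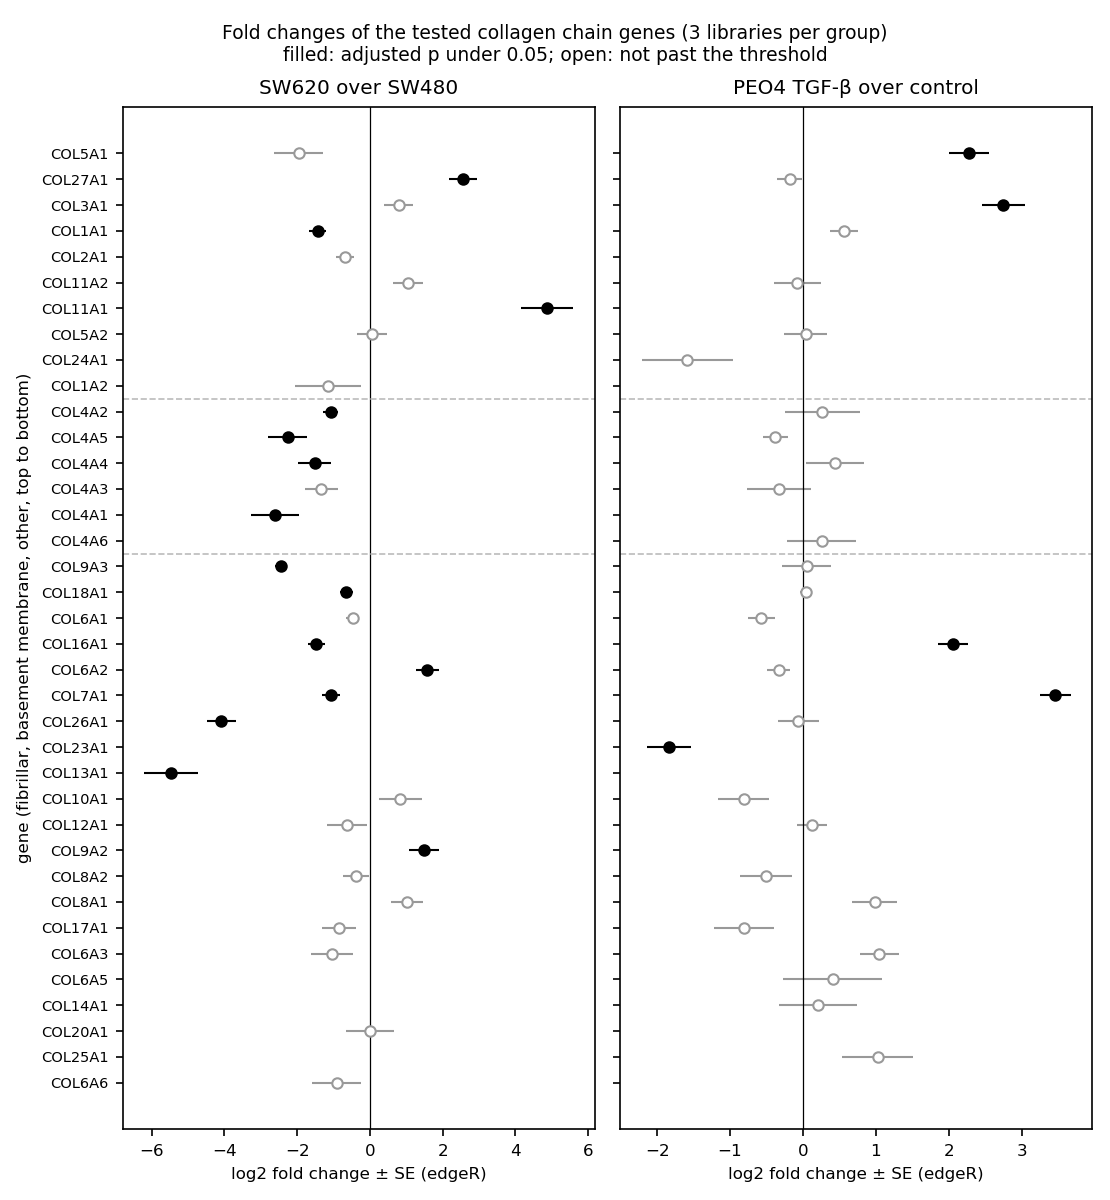
Log2 fold change ± SE by edgeR for every tested collagen chain gene, SW620 over SW480 at the left and TGF-β over control in PEO4 at the right, with filled points past the threshold and dashed lines between the fibrillar, type IV and other classes. The tested type IV points all lie below 0 at the left and near 0 at the right. At the left the COL11A1 point rests on few counts, since its SW480 libraries held 0 to 3 counts.

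Collagen molecules are built from chains in fixed proportion, so pairs of partner chains were compared within each library as a ratio of counts per exon base. Type I collagen protein usually holds more COL1A1 than COL1A2 chains, a proportion that transcript ratios do not measure. Among transcripts COL1A1 exceeded COL1A2 in every group. The ratio was 24.9 in PEO4 control (95% counting interval 15.1 to 44) and 35.0 with TGF-β (22 to 59.6). It was 24.4 in SW480 (17.1 to 36.3) and 20.9 in SW620 (12.3 to 38.8). These intervals overlap, and COL1A2 had only 14 to 31 counts per group. Without SW620 replicate 2 the SW620 ratio was 93.2, and without PEO4 control replicate 1 or 3 the control ratio was 43.2 or 16.8.

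The ratio of COL6A1 to COL6A2 set the colorectal lines apart from PEO4 and from each other. It was 1.64, 2.01 and 1.87 in the PEO4 control libraries and 1.5, 1.67 and 1.54 with TGF-β, so COL6A1 exceeded COL6A2 in every PEO4 library. In SW480 it was 47.2, 43.6 and 45.9, and in SW620 6.66, 13.9 and 14.1, so no library of one line reached the range of the other. The ratio of COL5A1 to COL5A2 was 9.19, 4.27 and 5.03 in PEO4 control and 31.5, 30.9 and 25.7 with TGF-β, which follows from the COL5A1 values above. In SW480 it was 0.394, 0.698 and 0.472, and in SW620 0.037, 0.161 and 0.154, so COL5A2 was the more abundant of this pair in the colorectal lines. COL4A1 was below COL4A2 in all libraries but TGF-β replicate 3, where the ratio was 1.38. This ratio was 0.0423, 0.148 and 0.0623 in SW480 and 0.0224, 0.065 and 0.0076 in SW620, so the lines overlapped. Summed over libraries it was 0.0766 in SW480 (0.0641 to 0.0908) and 0.026 in SW620 (0.0166 to 0.0389). Those intervals cover counting error only, not the spread between libraries. Leaving out SW620 replicate 2 or 3 gave 0.0141 or 0.0398. In PEO4 both type IV chains had at most 19 counts per library.

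**Figure D5:**
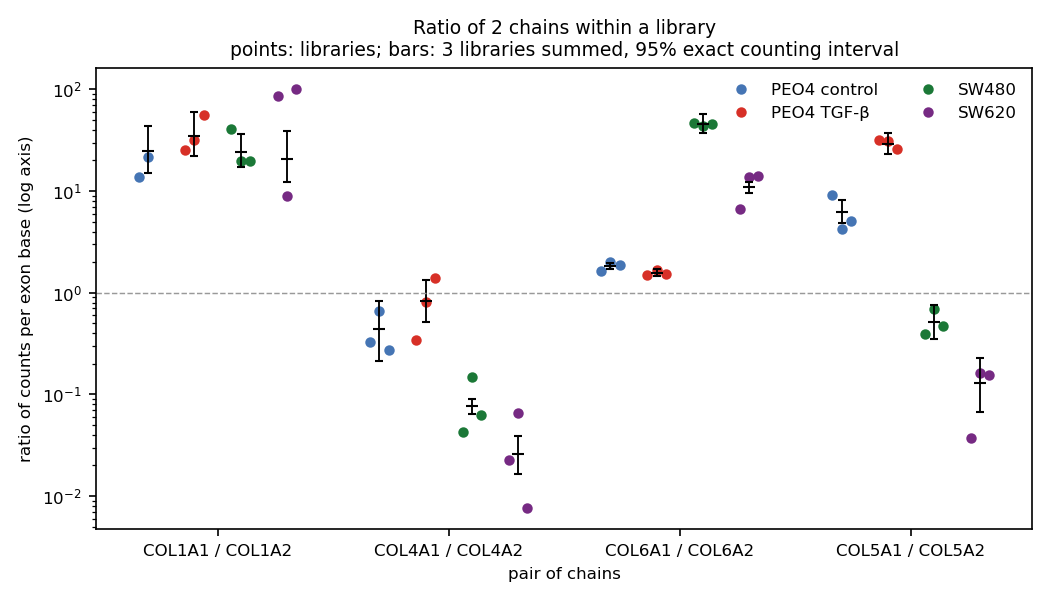
Ratio of counts per exon base between partner collagen chains (vertical log axis) in each library, with bars for the 3 libraries of a group summed and their 95% exact counting interval. COL6A1 over COL6A2 spans 1.5 to 2.01 in PEO4 and 43.6 to 47.2 in SW480, and no point is drawn for PEO4 control replicate 3 at COL1A1 over COL1A2, where COL1A2 had 0 counts.

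A collagen chain needs enzymes and chaperones to be hydroxylated, folded, exported, trimmed and crosslinked, so a list of 34 such genes was measured beside the chains. In PEO4, 32 of them were tested and 3 passed (9.38%, beside 2.26% of all genes tested), all higher with TGF-β, and the median log2 fold change was 0.14. LOX, a crosslinking lysyl oxidase, rose from 7.99 ± 2.4 to 20.3 ± 6.5 CPM (log2 1.34 ± 0.28, adjusted p 0.0439, edgeR), LOXL1, another, from 10.1 ± 0.50 to 15.2 ± 1.6 CPM (log2 0.58 ± 0.12, adjusted p 0.0493, edgeR), and P4HA2, a subunit of prolyl hydroxylase, from 24.7 ± 2.7 to 38.0 ± 5.6 CPM (log2 0.62 ± 0.13, adjusted p 0.0454, edgeR). All 3 lay just under the threshold. Without control replicate 2, control replicate 3 or TGF-β replicate 1 the adjusted p was 0.200, 0.0981 or 0.162 for LOX, 0.219, 0.1 or 0.197 for LOXL1 and 0.218, 0.115 or 0.171 for P4HA2. Without TGF-β replicate 2 it was 0.116 for LOXL1 and 0.156 for P4HA2, and without TGF-β replicate 3 it was 0.106 for LOX and 0.0952 for LOXL1. limma-voom did not call LOX (0.0653) or LOXL1 (0.0581), and LOXL1 was also lost with library totals (0.0616), the stricter filter (0.0502) and the GC correction (0.0775). With all 12 libraries in 1 model LOXL1 and P4HA2 were at 0.264 and 0.258. DESeq2 called LOX (adjusted p 8.43e-06), LOXL1 (0.0141) and P4HA2 (0.00159).

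Of 8 receptor genes, all tested, MRC2 (Endo180, which takes up collagen fragments) passed in PEO4 (12.5%, beside 2.26% of all genes tested), from 23.9 ± 3.3 to 38.4 ± 3.4 CPM (log2 0.68 ± 0.12, adjusted p 0.0226, edgeR). Its adjusted p was 0.139 or 0.0713 without control replicate 2 or 3, 0.104 or 0.0992 without TGF-β replicate 1 or 2, 0.0514 with the correction for GC content and 0.0811 with all 12 libraries in 1 model. DESeq2 called MRC2 (adjusted p 0.00015).

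In the SW lines 31 of the 34 processing genes were tested and 15 passed, with 4 higher in SW620 and 11 lower, a share of 48.4% beside the 30.5% of all genes, with a median log2 fold change of -0.17. Higher were PLOD2, the lysyl hydroxylase of the chain ends, from 2.14 ± 0.56 to 26.6 ± 6.5 CPM (log2 3.64), and COLGALT2, a collagen galactosyltransferase, from 37.8 ± 4.8 to 234 ± 30 CPM (log2 2.63). Lower were TLL2, a procollagen protease relative (log2 -3.36), PCOLCE, the enhancer of procollagen trimming (-2.72), LOXL2, a lysyl oxidase of basement membranes (-2.41), CRTAP of the prolyl 3-hydroxylase complex (-1.98) and P4HA2 (-1.82). Their adjusted p by edgeR's quasi-likelihood test lay between 1.5e-05 (COLGALT2) and 0.00246 (TLL2), and each passed with any 1 library left out. Of the 8 receptor genes 3 were lower in SW620, a share of 37.5% near the 30.5% of all genes tested. MRC2 fell the furthest of the 3, from 38.5 ± 6.2 to 0.696 ± 0.20 CPM (log2 -5.77 ± 0.27, adjusted p 2.7e-06, edgeR).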

How the data were processed

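RNA-seq of 12 libraries (4 groups, 3 replicates each) was analysed from the deposited counts. Per the submitters' processing notes, Trimmomatic 0.36, STAR 2.5.2b, featureCounts, Subread 1.5.2 and DESeq2 were used with GRCh38; strand use is not given in the sources used here. The count table the authors deposited holds whole-number counts per Ensembl gene ID. The authors' deposited tables of differential expression hold a signal per library (count over size factor), a log2 fold change and a p-value per the file headers, and were used only to compare calls. The authors' deposited table called 16 members between the SW lines, COL4A3 besides the 15 called here, and 6 in PEO4, COL6A3 besides the 5.

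Both comparisons were fitted separately, each over the whole table with its 6 libraries only, with edgeR 4.0.16 (filterByExpr, TMM, glmQLFit and glmQLFTest, two-sided) in R 4.3.3, with Benjamini-Hochberg adjustment over all genes tested and a threshold of 0.05. SE is the size of the log2 fold change over the square root of F. CPM of single genes uses TMM-scaled totals; TPM uses GENCODE 29 union exon lengths, which may not be the annotation counted. Coordinates and starts are GRCh38. Intervals and floors cover counting error only. With 3 against 3 libraries an exact permutation test cannot go below p = 0.1, and p-values measure only the spread between these samples. The methods were tested on simulated data. DESeq2 1.42.0, limma-voom (limma 3.58.1), other scalings and filters, all 12 libraries in 1 model, a correction for GC content, a replicate block and leaving out each library were the alternatives.

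Named are the members past the threshold in either comparison, those averaging at least 10 CPM in a group, and up to 8 processing and receptor genes with the largest changes among those past it. COL1A2, COL2A1, COL4A3, COL4A6, COL5A2, COL6A3, COL6A5, COL6A6, COL9A1, COL11A2, COL12A1, COL14A1, COL20A1 and COL24A1 were named after their values were seen, as partners, neighbours or exceptions, and so were the members that were tested in neither comparison. The members, classes, markers and lists were chosen with earlier results of these data known. PEO4-like carry-over was estimated from genes at or above 50 CPM in PEO4 with at most 3 counts in the other SW libraries.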

Additional observations from a re-analysis of the deposited data

How the results depend on the processing

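Between the SW lines, 7 members were lower with at least 10 counts required in every library, which left 5 of the 15 untested, and the other settings with all libraries and no block gave 14 to 19 members past the threshold, with 14 or 15 of the same genes. Leaving out a library gave 10 to 18 past, 7 (without SW620 replicate 1) to 14 lower. With at least 10 counts required, 5405 of 16250 genes tested passed. The other settings with no block gave 6109 to 8418 genes past, and leaving out a library gave 4253 to 7419. In PEO4 the same 5 members passed under every setting with all libraries. Without the filter 9 passed (3 lower), beside 1457 of 38108 genes tested, and leaving out a library gave 0 to 3 lower. Processing genes past the threshold in PEO4 were 7 by DESeq2 and with no filter, 1 by limma-voom and with all 12 libraries in 1 model, and 0 to 6 with a library left out. All genes past numbered 923 by DESeq2, 433 by limma-voom, 165 with all 12 libraries and 72 to 1080 with a library left out. A correction for GC content moved the median of all genes between the SW lines from 0.03 to 0.14 on the log2 scale.

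Whether shared replicate numbers pair the samples was not settled. Deviations of same-numbered libraries correlated at 0.0159, 0.67 and 0.567 in the SW lines, and those of different-numbered libraries at -0.63 to 0.267. In PEO4 same-numbered libraries correlated at 0.291, -0.14 and 0.481, and different-numbered ones at -0.486 to 0.239. With the replicate number as a block, 21 members passed between the SW lines (50.9% of all genes tested) and 9 in PEO4 (11%), 7 higher and 2 lower, and the processing genes were 25 and 8. With the block and the GC correction 7 members were higher between the SW lines, 9 passed in PEO4 (3 lower), and processing genes were 24 and 8. All genes past were then 11296 of 20941 and 1814 of 19064.

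No member past the threshold changed sign. Among the members named by the rule, changes of sign occurred in PEO4 only. COL9A3 was at -0.0079 by limma-voom, -0.0195 with block and GC correction, and -0.159 to 0.291 with a library left out. Leaving out a library gave -0.221 to 0.199 for COL26A1, -0.328 to 0.022 for COL27A1, -0.141 to 0.582 for COL4A2 and -0.0264 to 0.104 for COL18A1. Among the other members, COL5A2 (-0.12 to 0.27) and COL20A1 (-0.41 to 0.63) changed sign between the SW lines, and COL4A3, COL4A6, COL5A2, COL6A5, COL11A2, COL12A1 and COL14A1 did in PEO4. Levels under about 0.2 CPM were not distinguishable from 0 at this depth.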
